A study of Rattus norvegicus with 6 samples.

Results

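The genes of sterol and fatty acid synthesis controlled by the sterol regulatory element-binding proteins (SREBPs) were examined in the renal cortex of rats given tris(2-chloroethyl)phosphate (TCEP), a chlorinated organophosphate flame retardant. They were taken as a list of 28 named genes, 22 of a sterol arm (18 enzymes of cholesterol synthesis, 3 regulators and a sterol carrier) and 6 of a fatty acid arm. Of the 28, 27 had a probe that could be named through its accession and 26 were tested, among the 11804 genes tested in all. Scd, a stearoyl-CoA desaturase, was well above background on 0 of the 6 arrays with either of its 2 probes and was not tested. Srebf1, which encodes the SREBP isoform that favours fatty acid genes, was not analysed here.

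SREBPs are made as precursors held in the endoplasmic reticulum membrane by the escort protein Scap, which Insig proteins retain there when sterols are plentiful. When membrane sterols fall, Scap carries the precursor to the Golgi, proteases release its amino-terminal part, and this enters the nucleus and raises transcription of genes for cholesterol synthesis and uptake. The isoform encoded by Srebf2 acts mainly on sterol genes, and that encoded by Srebf1 mainly on genes that make and desaturate fatty acids, under insulin and liver X receptor (LXR) control as well as sterol control.

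The animals were male rats of the outbred Sprague-Dawley stock, 5 weeks old when purchased, and each 1-colour (Cy3) Agilent array carried the RNA of 1 labelled sample. A vehicle group of 3 rats received corn oil for 4 weeks, and a TCEP group of 3 rats received 400 mg/kg/day of TCEP for the same 4 weeks. The feeding state and the time of day at collection were not given in the sources used here. Per array, the processed intensity at the 75th percentile ranged from 966 to 1078 units, and 67.2% to 69.3% of the 61657 probes other than controls stood well above background. All 10 proximal tubule markers examined, among them Slc34a1 and Lrp2, were measured. Each of the 2 slides and each scan time held a single group, so slide and treatment cannot be told apart in any value that follows. A level means the log2 signal relative to its array's 75th percentile, differences are TCEP minus vehicle on that log2 scale, and ± is the SD over the 3 arrays of a group.

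Most sterol synthesis enzymes had slightly higher means after TCEP, and the fatty acid arm did not share this direction. Of the 22 sterol arm genes, all of which were tested, 18 had a higher mean with TCEP and 4 a lower mean, with a median difference of 0.10. Over all genes tested the share with a higher mean was 52.5% and the median difference 0.01. Of the 4 tested genes of the fatty acid arm, 1 had a higher and 3 a lower mean, with a median of -0.12. None of the 26 genes passed a Benjamini-Hochberg adjusted p of 0.05 in the limma fit over all genes (adjusted p between 0.535 and 0.987), and the share of all genes that passed was 0.0%. An unadjusted p under 0.05 was found for 983 genes in all (8.33% of those tested, made up of 4.21% higher and 4.12% lower). Among the 26 members there were 2, Nsdhl higher and Elovl6 lower. The 95% confidence interval of the difference included 0 for 21 of the 22 sterol genes and 3 of the 4 fatty acid genes, and over the sterol arm these intervals reached from -0.46 to 0.83.

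The sterol arm values depended on single animals, the median mainly on TCEP replicate 2. Without that array the median was 0.03, with 13 of 22 genes higher. Without vehicle replicate 1 it stayed at 0.09, but 14 of 22 were higher. Leaving out any other array gave medians from 0.10 to 0.14, with 18 or 19 of 22 higher. The median was 0.06 with 15 of 22 higher under normexp, another background correction. It was 0.17 with 19 of 22 higher when arrays were weighted by quality.

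**Figure D1:**
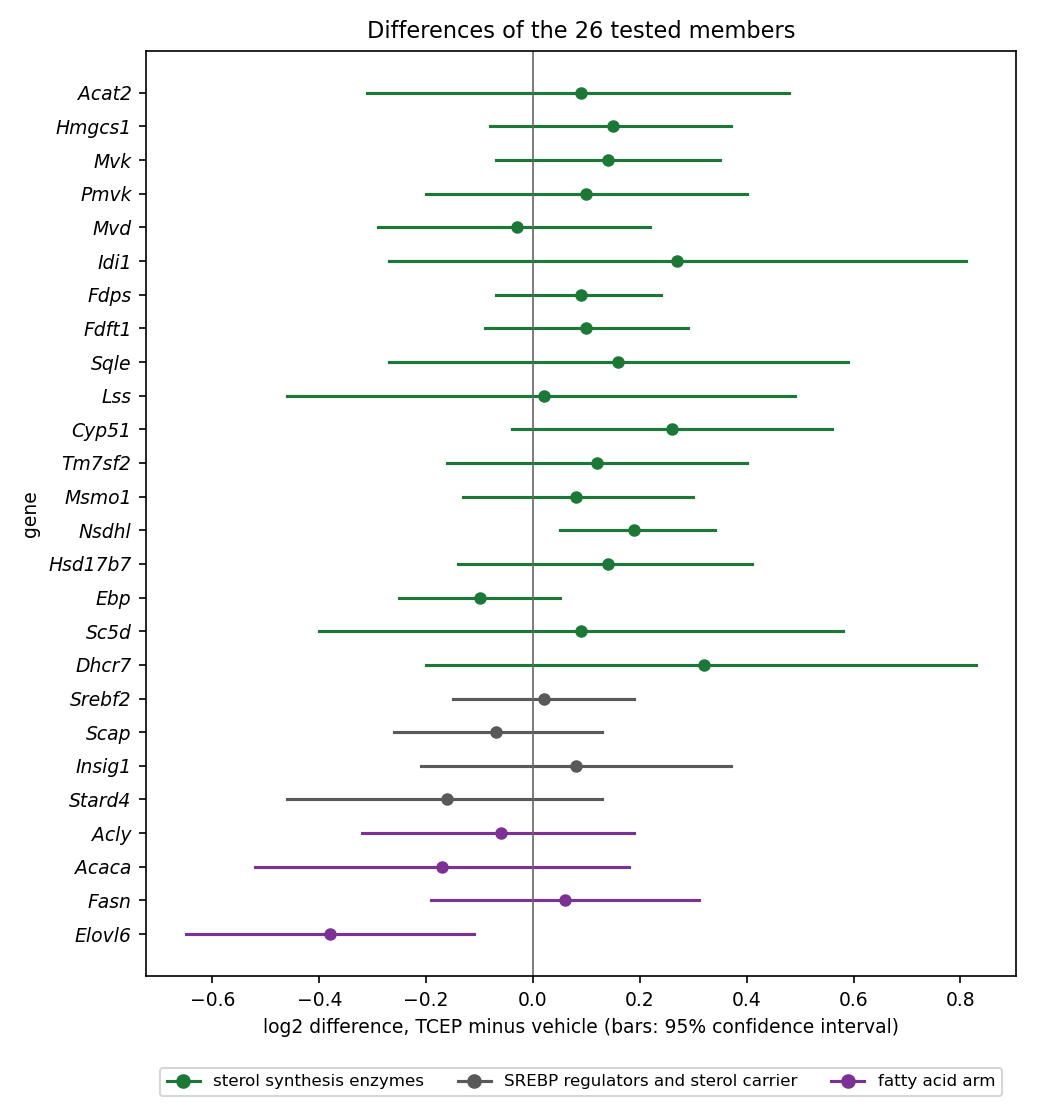
Log2 difference, TCEP minus vehicle, for the 26 tested genes, with 95% confidence intervals from the moderated limma fit (3 arrays a group). Points of the sterol enzymes lie mostly right of 0, between -0.10 and 0.32, with intervals that include 0 for all of them but Nsdhl, and Elovl6 has the lowest value at -0.38.

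SREBPs act at promoters together with the CCAAT-binding factor NF-Y and with Sp1, which binds GC boxes. RefSeq promoters (build GRCr8) were matched for 18 tested sterol arm genes and for Acly of the fatty acid arm, and the 250 bases before the annotated start were searched on both strands. CCAAT stood in 14 of the 18 sterol promoters, against 34.0% of all 33469 promoters in the table and 35.5% of the 10117 promoters of genes tested here. GGGCGG stood in 16 of the 18, against 30.5% and 53.9%. No CCAAT overlapped a GGGCGG in these promoters. The sterol regulatory element consensus TCACNCCAC was found in 0 of the 18 and in 0.974% of all promoters, which says only that these letters are not in this window. The difference after TCEP had a median of 0.09 in the 14 genes with CCAAT and 0.18 in the 4 without (Acat2, Cyp51, Dhcr7 and Scap), a description of few genes.

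These promoters are shown for the entry enzyme Hmgcs1, for Idi1 and Dhcr7, which had the largest mean differences of the sterol arm, and for Nsdhl, whose groups did not overlap. Capitals mark CCAAT on either strand (printed as CCAAT or ATTGG), with 2 in Hmgcs1, 2 in Idi1, 5 in Nsdhl and 0 in Dhcr7. The search found GGGCGG 4 times in Hmgcs1, 2 times in Dhcr7 and 0 times in Idi1 and Nsdhl.
Hmgcs1, chr2:53382054-53382303, plus strand: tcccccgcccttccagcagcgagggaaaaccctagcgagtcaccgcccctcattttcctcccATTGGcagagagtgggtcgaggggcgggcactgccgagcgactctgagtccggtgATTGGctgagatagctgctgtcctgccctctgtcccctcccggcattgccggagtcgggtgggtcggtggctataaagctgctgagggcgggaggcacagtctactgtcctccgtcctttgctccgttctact
Idi1, chr17:66547525-66547774, minus strand: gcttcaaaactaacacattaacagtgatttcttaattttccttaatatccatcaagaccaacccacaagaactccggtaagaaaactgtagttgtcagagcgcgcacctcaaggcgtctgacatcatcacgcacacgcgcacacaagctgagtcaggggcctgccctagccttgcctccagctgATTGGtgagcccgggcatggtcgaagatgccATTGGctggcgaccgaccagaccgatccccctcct
Nsdhl, chrX:155817110-155817359, plus strand: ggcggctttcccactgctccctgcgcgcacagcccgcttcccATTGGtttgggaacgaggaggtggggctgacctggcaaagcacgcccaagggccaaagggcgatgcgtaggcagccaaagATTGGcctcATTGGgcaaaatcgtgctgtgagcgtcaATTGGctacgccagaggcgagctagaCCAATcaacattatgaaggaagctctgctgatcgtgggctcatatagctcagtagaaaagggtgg
Dhcr7, chr1:208444184-208444433, plus strand: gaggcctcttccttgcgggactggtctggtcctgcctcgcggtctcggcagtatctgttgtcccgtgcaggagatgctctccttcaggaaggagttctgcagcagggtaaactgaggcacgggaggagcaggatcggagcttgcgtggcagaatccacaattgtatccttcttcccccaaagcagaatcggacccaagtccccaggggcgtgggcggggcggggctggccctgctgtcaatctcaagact

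The pathway begins with Acat2, the cytosolic thiolase that joins acetyl-CoA units, and Hmgcs1, which makes HMG-CoA. Acat2 was at 2.80, 3.16 and 3.34 on vehicle replicates 1 to 3 and at 3.12, 3.36 and 3.07 on TCEP replicates 1 to 3. The TCEP arrays lay within the spread of the vehicle arrays apart from TCEP replicate 2, and the difference of 0.09 (SE 0.16) became -0.06 without vehicle replicate 1 and -0.01 without TCEP replicate 2. Hmgcs1, a classical SREBP target, was at 2.84, 2.90 and 2.73 in vehicle and at 2.85, 3.10 and 2.96 in TCEP arrays. TCEP replicates 2 and 3 were above every vehicle array and TCEP replicate 1 was not, with a difference of 0.15 (SE 0.09, 95% confidence interval -0.08 to 0.37, adjusted p = 0.711 with limma). A further probe of Hmgcs1 gave 0.04 (SE 0.11) and a dim one -0.07 (SE 0.07). The mean over its probes gave 0.04, and normexp gave 0.00.

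Between mevalonate and farnesyl diphosphate, 4 of 5 genes had higher means. Idi1, the isopentenyl diphosphate isomerase, was at 1.18, 1.55 and 1.07 in vehicle and at 1.77, 1.74 and 1.11 in TCEP arrays. TCEP replicates 1 and 2 thus lay above all vehicle arrays while TCEP replicate 3 lay at the level of the lower vehicle arrays. Its difference was 0.27 (SE 0.22, adjusted p = 0.766 with limma), and its 2 further probes gave 0.32 and 0.33. Mevalonate kinase (Mvk) and phosphomevalonate kinase (Pmvk), which add successive phosphates to mevalonate, differed by 0.14 (SE 0.08) and 0.10 (SE 0.12), and each had the same order of TCEP arrays as Idi1. Farnesyl diphosphate synthase (Fdps) was at 2.60, 2.69 and 2.71 in vehicle and at 2.74, 2.78 and 2.74 in TCEP arrays. These groups did not overlap, but by a narrow margin, with a difference of 0.09 (SE 0.06, adjusted p = 0.743 with limma) that became -0.04 under normexp. The decarboxylase gene Mvd was at 0.56 ± 0.05 with vehicle and 0.52 ± 0.18 with TCEP, and its difference of -0.03 became 0.07 without TCEP replicate 1.

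All 3 enzymes between farnesyl diphosphate and lanosterol had higher means, with a median difference of 0.10. Squalene synthase (Fdft1) differed by 0.10 (SE 0.08). Squalene epoxidase (Sqle), a rate-controlling step, was at 1.62, 1.83 and 1.33 in vehicle and at 1.62, 2.04 and 1.60 in TCEP arrays. Its groups overlapped and the difference was 0.16 (SE 0.17, 95% confidence interval -0.27 to 0.59). Lanosterol synthase (Lss) was at -0.06 on vehicle replicate 1 and at 0.55 and 0.59 on the other vehicle arrays, against 0.26, 0.54 and 0.34 in TCEP arrays. The Lss difference of 0.02 therefore rested on that 1 vehicle array and was -0.19 without it.

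Of the 8 genes that convert lanosterol to cholesterol, 7 had higher means. Nsdhl, the sterol dehydrogenase that takes part in removing the methyl groups from the sterol ring, was at -0.79, -0.79 and -0.76 in vehicle and at -0.64, -0.58 and -0.54 in TCEP arrays. Every TCEP array was above every vehicle array, and both groups were narrow. The mean with TCEP was 114% of that with vehicle, a difference of 0.19 (SE 0.06, unadjusted p = 0.0180 and adjusted p = 0.547 with limma), and it stayed between 0.11 and 0.24 over the 17 alternatives (adjusted p between 0.309 and 0.999). Cyp51, the lanosterol demethylase, was at -0.49, -0.44 and -0.43 in vehicle and at -0.08, -0.05 and -0.46 in TCEP arrays. Here too TCEP replicates 1 and 2 were high and TCEP replicate 3 was level with vehicle, giving 0.26 (SE 0.12, 95% confidence interval -0.04 to 0.56).

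Dhcr7, which reduces the last intermediate of a main route to cholesterol, had the largest mean difference of the arm. It was at 2.07, 2.45 and 2.04 in vehicle and at 2.88, 2.48 and 2.15 in TCEP arrays, so TCEP replicate 3 lay below vehicle replicate 2. The mean with TCEP was 125% of that with vehicle and the difference 0.32 (SE 0.21, 95% confidence interval -0.20 to 0.83, adjusted p = 0.726 with limma). Without TCEP replicate 1, its highest array, the Dhcr7 difference was 0.13 (SE 0.17). Ebp, the sterol isomerase, ran the other way, at 3.94, 3.97 and 3.88 in vehicle and at 3.83, 3.79 and 3.85 in TCEP arrays. All TCEP arrays were below all vehicle arrays, at 93.2% of the vehicle mean, with a difference of -0.10 (SE 0.06, adjusted p = 0.698 with limma). The sterol reductase Tm7sf2, the methyl oxidase Msmo1 and the ketoreductase Hsd17b7 differed by 0.12 (SE 0.11), 0.08 (SE 0.09) and 0.14 (SE 0.11). Sc5d, the sterol desaturase, differed by 0.09 (SE 0.20) and by -0.06 without vehicle replicate 1, its lowest array.

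The regulators had confidence intervals that included 0. Srebf2 was at 1.57, 1.66 and 1.71 in vehicle and at 1.60, 1.73 and 1.67 in TCEP arrays. Its difference was 0.02 (SE 0.07, 95% confidence interval -0.15 to 0.19). Scap differed by -0.07 (-0.26 to 0.13) and Insig1, itself a target of SREBP, by 0.08 (-0.21 to 0.37). For Insig1 the value without TCEP replicate 2 was -0.01. The sterol carrier gene Stard4 was at 1.74, 1.76 and 1.82 in vehicle and at 1.45, 1.86 and 1.52 in TCEP arrays, with TCEP replicates 1 and 3 below and TCEP replicate 2 above all vehicle arrays. Its difference was -0.16 (SE 0.12).

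**Figure D2:**
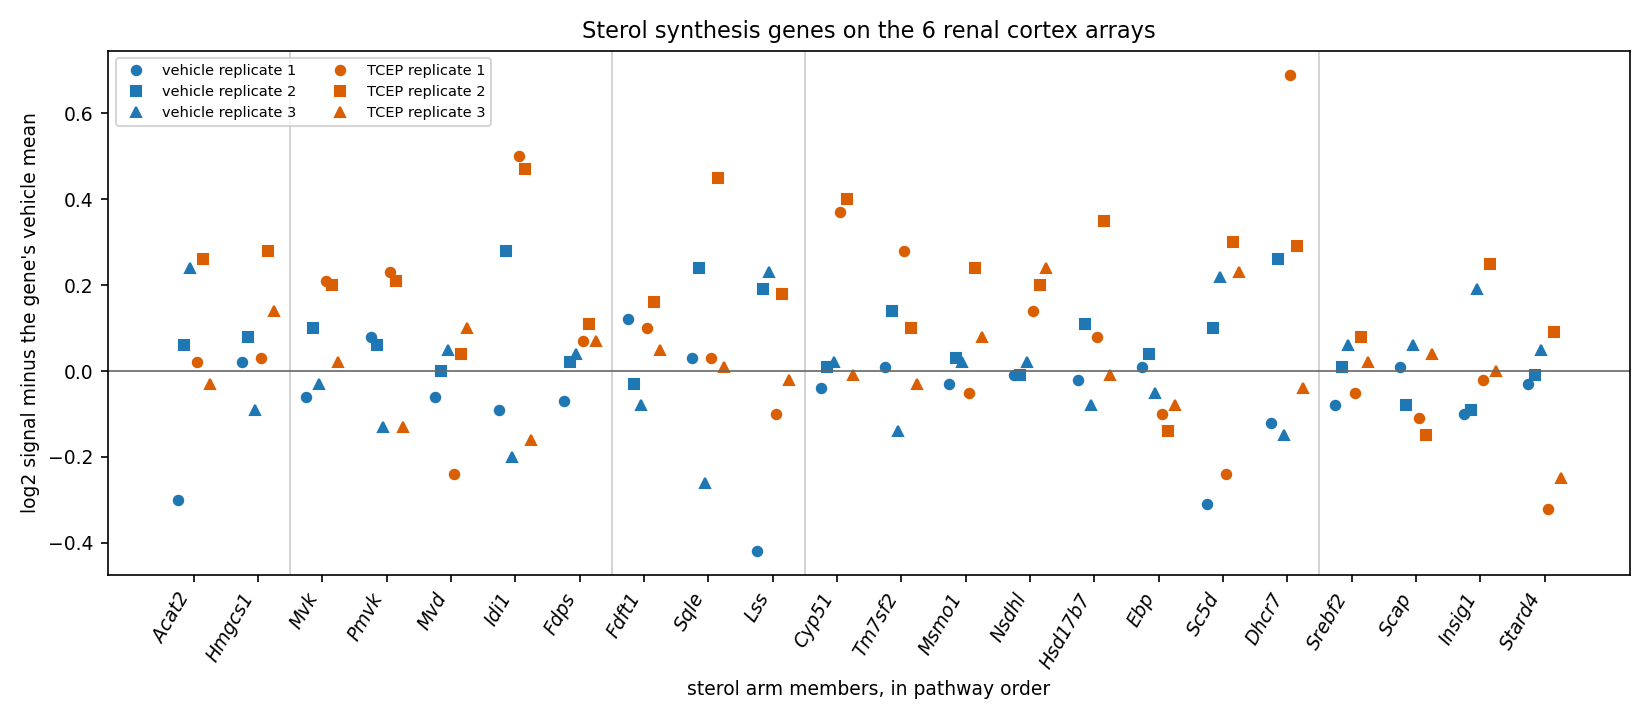
Log2 signal of each of the 22 sterol arm genes on each array, minus that gene's vehicle mean, in pathway order, with grey lines between the steps (entry, mevalonate to farnesyl diphosphate, squalene to lanosterol, lanosterol to cholesterol, regulators and carrier). The TCEP points of Idi1, Cyp51 and Dhcr7 are spread widely, while those of Nsdhl form a narrow group above vehicle.

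Groups that did not overlap were about as frequent in the sterol arm as among all genes. All TCEP arrays lay above all vehicle arrays for 2 of the 22 (Fdps and Nsdhl) and below for 1 (Ebp), and in the fatty acid arm below for 1 of 4 (Elovl6). Among all genes tested 15.6% did not overlap, 8.63% with TCEP above and 6.97% with TCEP below. A pattern noticed after the values were seen was that TCEP replicates 1 and 2 lay above every vehicle array while TCEP replicate 3 did not, in 5 of the 22 sterol genes (Mvk, Pmvk, Idi1, Cyp51 and Dhcr7) and in 5.44% of all genes. The median SD within groups was 0.15 in the sterol arm and 0.13 over all genes.

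Many sterol genes shared the same highest and lowest arrays. TCEP replicate 2 held the highest value for 12 of the 22 sterol genes (54.5%), against 14.7% of all genes. The lowest value was on vehicle replicate 1 for 9 of them (40.9%, against 12.7% of all genes) and on vehicle replicate 3 for 8 (36.4%, against 21.9%). Averaged over the 18 enzymes, relative to each gene's mean over the 6 arrays, the vehicle arrays were at -0.13, 0.03 and -0.08 and the TCEP arrays at 0.05, 0.17 and -0.04. TCEP replicate 3 therefore lay within the vehicle range and vehicle replicate 2 within the TCEP range.

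**Figure D3:**
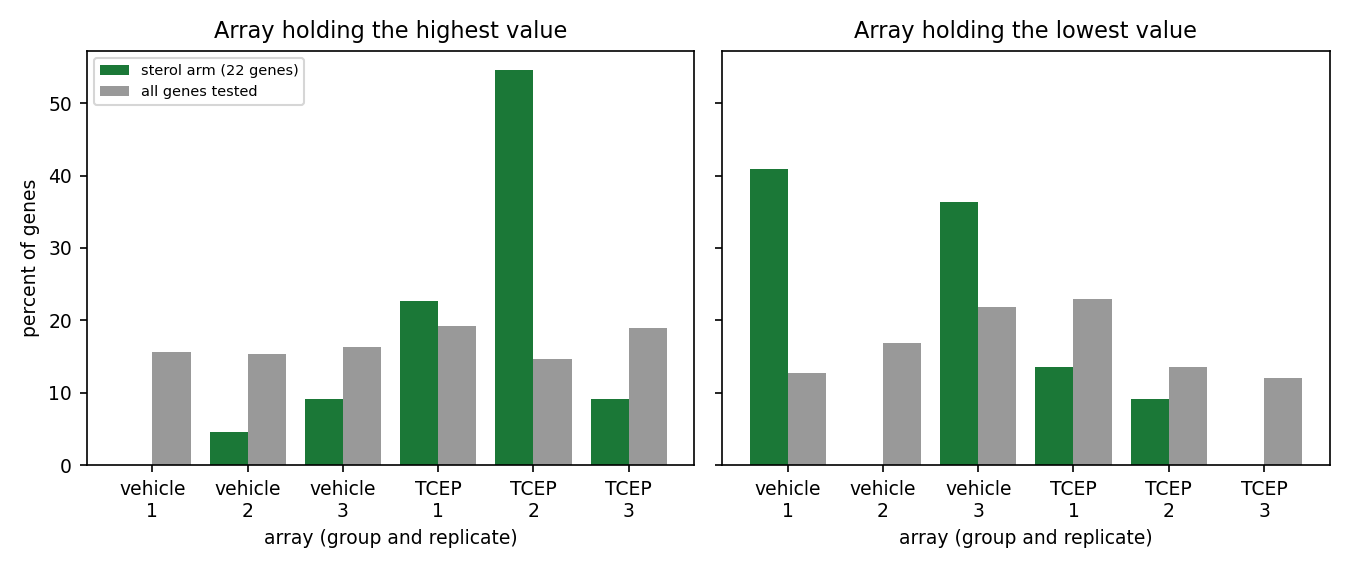
Percent of genes whose highest (left) or lowest (right) of 6 values was on each array, for the 22 sterol arm genes (green) and all 11804 genes tested (grey). The tallest green bars are TCEP replicate 2 on the left, at 54.5%, and vehicle replicate 1 on the right, at 40.9%.

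Further probes of the same genes mostly gave the same sign. Of 19 further detected probes in the sterol arm, 15 had the sign of the brightest probe. The 4 others belonged to Hmgcs1 (-0.07), Insig1 (-0.04), Lss (-0.12) and Srebf2 (-0.02). Of the 26 tested genes 9 had a single named probe, among them Nsdhl, Ebp and Dhcr7, so their values have no such check.

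In the fatty acid arm the clearest value was that of Elovl6, the elongase that extends palmitate to stearate and a target of the SREBP isoform of Srebf1. It was at 1.02, 1.14 and 1.35 in vehicle and at 0.68, 0.92 and 0.79 in TCEP arrays. Every TCEP array was below every vehicle array, and the mean with TCEP was 76.8% of that with vehicle. The difference was -0.38 (SE 0.11, 95% confidence interval -0.65 to -0.11, unadjusted p = 0.0143 and adjusted p = 0.535 with limma) and lay between -0.46 and -0.27 over the 17 alternatives (adjusted p between 0.358 and 0.999). A second, dimmer probe of Elovl6 gave -0.41 (SE 0.14), again with no overlap between the groups.

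The enzymes that precede Elovl6 had intervals that included 0. Acly, which makes cytosolic acetyl-CoA from citrate, was at 3.87, 3.96 and 4.09 in vehicle and at 3.75, 4.05 and 3.93 in TCEP arrays, with overlapping groups. Its difference was -0.06 (SE 0.10), and the value depended on the probe and the arrays used. A second probe gave -0.25 (SE 0.13) and the mean over probes -0.16, and leaving out 1 array gave values from -0.13 (without TCEP replicate 2) to 0.02 (without TCEP replicate 1). Acaca, the acetyl-CoA carboxylase that makes malonyl-CoA, was dim, at -3.58 ± 0.11 with vehicle and -3.75 ± 0.25 with TCEP (difference -0.17, SE 0.14). Fatty acid synthase (Fasn) was at 1.41, 1.47 and 1.31 in vehicle and at 1.27, 1.54 and 1.55 in TCEP arrays. These groups overlapped, and the difference of 0.06 (95% confidence interval -0.19 to 0.31) was -0.04 under normexp. The arm's median of -0.12 over these 4 genes was -0.06 without vehicle replicate 3, -0.07 without TCEP replicate 1, -0.19 without TCEP replicate 3 and -0.07 without scaling between arrays.

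**Figure D4:**
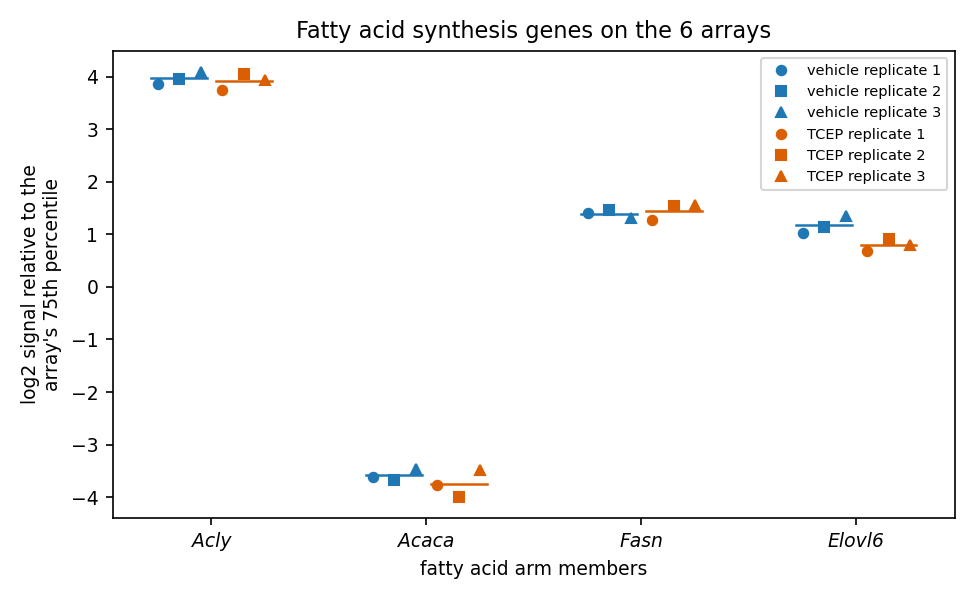
Log2 signal relative to the array's 75th percentile of the 4 tested fatty acid arm genes on each array, with a line at each group mean. The TCEP points lie below the vehicle points for Elovl6 and overlap them for Acly, Acaca and Fasn; heights are not comparable between genes.

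Other genes of the pathway gave a mixed account, and 0 of them passed the adjusted threshold. Of the further sterol enzymes 3 of 5 were measured and all 3 had higher means, with a median difference of 0.07, among them Erg28, a scaffold of the demethylation enzymes, at 0.02 (SE 0.07). Genes of sterol uptake and endosomal export had higher means in 4 of 9, with a median of -0.04. Of these Stard3, a sterol-binding protein of late endosomes, differed by 0.15 (SE 0.07), and its groups did not overlap.

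Mbtps2, the Golgi protease that makes the second cleavage of SREBP, was also dim and differed by 0.25 (SE 0.08, unadjusted p = 0.0239), with no overlap between the groups. Of its list of SREBP processing and sterol-sensing genes, 6 of 8 had higher means with a median of 0.03. Genes of the isoprenoid branches, such as those of ubiquinone and dolichol synthesis, were level, with 5 of 8 higher and a median of 0.01. Targets of LXR, the receptor for oxysterols, were listed together with genes of sterol efflux and esterification. Of this mixed list 8 of 11 genes had lower means, with a median of -0.17. Among them Apoe, a carrier of lipoprotein cholesterol, differed by -0.31 (SE 0.13, unadjusted p = 0.0490) and Lcat, which esterifies cholesterol on lipoproteins, by -0.17 (SE 0.07).

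Beyond Elovl6, genes of fatty acid and glycerolipid synthesis were divided, with 14 of 26 higher and a median of 0.02. Fads2, the desaturase that begins the synthesis of long polyunsaturated fatty acids and also an SREBP target, was at -0.46, -0.43 and -0.37 in vehicle and at -0.75, -0.65 and -0.73 in TCEP arrays. Its groups were narrow and did not overlap, with a difference of -0.29 (SE 0.06, unadjusted p = 0.00415 and adjusted p = 0.533 with limma). Thrsp, a lipogenic protein, differed by 0.43 (SE 0.16) at a dim probe. Lpin1, a phosphatidate phosphatase, was lower on all TCEP arrays but well above background on 2 of the 3. It was tested and is counted in the list, but for that reason its difference is not given. Malic enzyme (Me1), a source of NADPH, differed by 0.24 (SE 0.12).

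Lists that follow feeding and the clock were read beside these values. Genes of fasting and PPAR alpha had lower means in 6 of 9, with a median of -0.18: Ehhadh, of peroxisomal fatty acid oxidation, differed by -0.37 (SE 0.14), while Cpt1a, of mitochondrial fatty acid entry, differed by 0.45 (SE 0.26). Circadian output genes had a median of -0.06 and a mean of 0.17, with 4 of 9 higher. Dbp and Tef, of the clock's output, differed by 0.36 (SE 0.15) and 0.37 (SE 0.17), and for both the lowest TCEP array exceeded the highest vehicle array. The part of either in the sterol or fatty acid values was not tested.

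Whole cortex was measured, so fewer cells of a type and less RNA per cell cannot be told apart. Fat beside the kidney expresses the fatty acid arm strongly. Of 14 adipocyte markers 10 were tested, and their summed level, in multiples of the array's 75th percentile, was between 12.9 and 13.3 in vehicle and between 12.3 and 16.5 in TCEP arrays. Such a sum follows its brightest genes, here Cd36 and Pnpla2 (vehicle means of 2.40 and 1.91). Of the 10, 7 had higher means with a median of 0.10. Fabp4, a fatty acid carrier, differed by 1.41 (SE 0.51, unadjusted p = 0.0329 with limma) with all TCEP values above vehicle, and Lpl, the lipoprotein lipase, by -0.33 (SE 0.10, unadjusted p = 0.0151 with limma) with all TCEP values below. The adipokine gene Adipoq differed by 0.09 (SE 0.16) and the adipsin gene Cfd by -0.82 (SE 0.37), while Lep was well above background on 0 of the 6 arrays. TCEP replicate 1 had the highest adipocyte mean (0.46 relative to the gene means) and the lowest fatty acid arm mean (-0.19). On that array the adipocyte median was 0.20 relative to the gene means. Fabp4 stood at -1.58 there, against -4.20 to -3.82 in vehicle. Adipoq was at 0.06, within its vehicle range of -0.46 to 0.18. Markers of the distal tubule and collecting duct had lower means with TCEP in 8 of 9. Of these 6 had an unadjusted limma p under 0.05, against 4.12% of all genes in that direction. The summed level was between 150 and 209 in vehicle and between 152 and 155 in TCEP arrays. Aqp2, the brightest gene of this sum, differed by -0.09 (SE 0.24). Podocyte markers had lower means in 6 of 6, with a summed level between 29.9 and 37.6 in vehicle and between 28 and 37.1 in TCEP arrays. Macrophage and monocyte markers had lower means in 7 of 7, with a median of -0.13, but the groups overlapped for each gene. Their summed level was between 105 and 143 in vehicle and between 95.9 and 103 in TCEP arrays. Lyz2 led this sum, at a vehicle mean of 6.51 against 3.27 for the next gene, C1qb. Averaged over the genes, relative to the gene means, vehicle replicate 1 (-0.17) lay below every TCEP array (-0.12 to -0.06). Neutrophil and erythroid markers had lower means in 5 of 5, with a median of -0.31 and a summed level between 461 and 661 in vehicle and between 465 and 558 in TCEP arrays. The erythroid genes Hba-a1 and Hbb led this sum (vehicle means of 8.43 and 7.79). Vehicle replicate 2 was the highest array for 5 of the 7 macrophage and monocyte genes and for 5 of the 5 neutrophil and erythroid genes. Of 10 adrenal genes 6 were tested, with 2 higher and a median of -0.07, and their summed level was between 3.45 and 4.23 in vehicle and between 3.38 and 4.76 in TCEP arrays. Endothelial and thick ascending limb markers had higher means in 2 of 6 and 3 of 5, with medians of -0.05 and 0.02. Proximal tubule markers were at a median of 0.01, with a summed level between 2260 and 2430 in vehicle and between 2180 and 2490 in TCEP arrays. The part of cell composition in the fatty acid arm (Elovl6 included), Fads2 or sterol values was not tested.

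**Figure D5:**
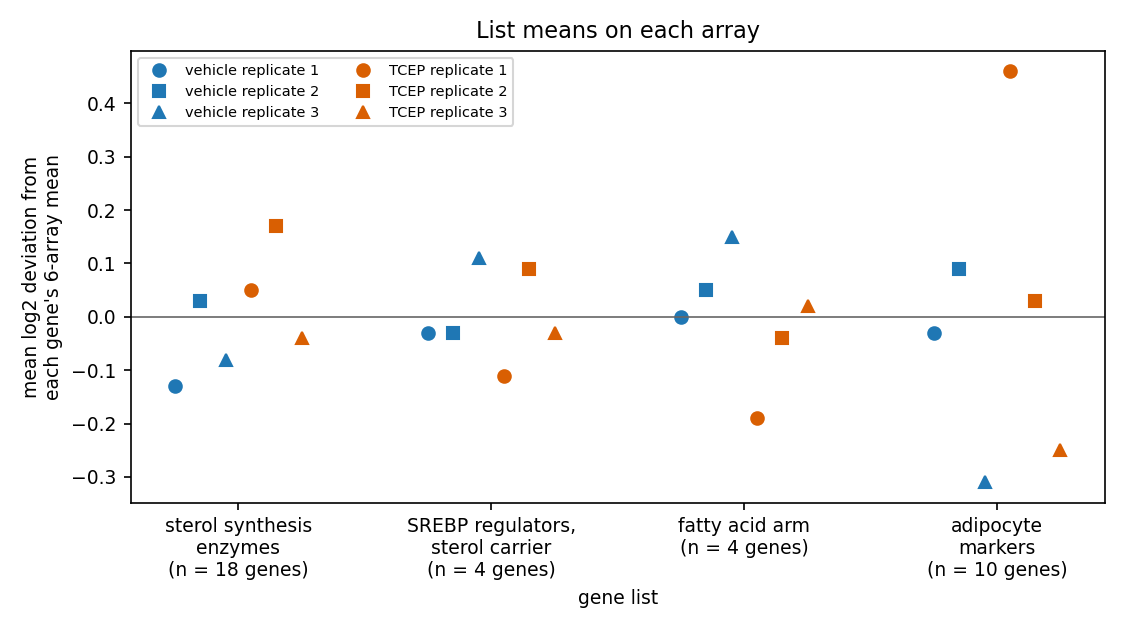
Mean log2 deviation from each gene's mean over the 6 arrays, per array, for the sterol enzymes, the regulators and carrier, the fatty acid arm and adipocyte markers. In each list the vehicle (blue) and TCEP (orange) points overlap, and TCEP replicate 2 is the highest of the sterol enzymes at 0.17.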

How the data were processed

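Renal cortex RNA of 6 rats (3 vehicle, 3 TCEP, grouped by the sample titles) was hybridised to single-colour Agilent arrays. Per the file headers, the deposited processed signal comes from Agilent Feature Extraction 10.7.1.1, which had subtracted background and removed a spatial trend, and is a linear intensity. The spot flags are other values of 0 or 1, per the file headers. The series matrix, as deposited, holds this intensity divided by a constant per array, which lay within 0.15% of the 75th percentile.

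Control spots (1319 of 62976) and 12 outlier probes were left out. Accessions without versions were named through the RefSeq gene table of GRCr8, used for names and for the promoters: 27460 probes (44.5%) matched 15284 genes. Values were log2 of that signal after division by the array's 75th percentile, with the brightest probe per gene. A gene was tested if it was well above background throughout the vehicle or the TCEP group. The test was the two-sided one of limma 3.58.1 (lmFit with eBayes in R 4.3.3, a term for group and no covariate, 5.93 degrees of freedom), with Benjamini-Hochberg adjustment over all 11804. The array number limits the precision. Drawing used Python 3.11.15 and matplotlib 3.10.9. All members are described, with up to 4 genes of each neighbouring list by smallest unadjusted p and summaries of marker lists; some genes of the neighbouring lists are not reported here. Members and lists were chosen with earlier results of these data known. Alternatives covered scaling, background correction, filters, probes, the series matrix, a replicate block, variance trend, array weights and leaving out each array.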

Additional observations from a re-analysis of the deposited data

How the results depend on the processing

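Under 17 alternatives the 26 tested genes gave 442 differences, of which 423 kept the sign, 19 had another sign and 0 passed the adjusted threshold. The sign was the same in every setting for 17 genes, among them Hmgcs1, which was at 0.00 under normexp. The sign changed under normexp for Fasn (-0.04), Fdps (-0.04), Lss (-0.05) and Sc5d (-0.01). With array weights it changed for Acly (0.03) and Mvd (0.03), without scaling for Mvd (0.01) and with the mean over probes for Lss (-0.05). Without vehicle replicate 1 it changed for Acat2 (-0.06), Lss (-0.19), Sc5d (-0.06) and Srebf2 (-0.02), without TCEP replicate 1 for Acly (0.02) and Mvd (0.07), and without TCEP replicate 2 for Acat2 (-0.01), Insig1 (-0.01), Lss (-0.06), Sc5d (-0.01) and Srebf2 (-0.01). Further probes gave another sign for Hmgcs1 (-0.07), Insig1 (-0.04), Lss (-0.12) and Srebf2 (-0.02). The cause was not tested. Leaving out 1 array, values ran from -0.06 to 0.21 for Acat2, -0.13 to 0.02 for Acly, -0.01 to 0.17 for Insig1, -0.19 to 0.13 for Lss, -0.10 to 0.07 for Mvd, -0.06 to 0.26 for Sc5d and -0.02 to 0.05 for Srebf2. In the same fits the sterol arm median lay between 0.03 and 0.14, the fatty acid arm median between -0.19 and -0.06, the number of genes called between 0 and 1 (Dio2, without TCEP replicate 3) and the number at an unadjusted p under 0.05 between 702 and 1011. That last number was 384 with spike-in centring and 1568 with normexp. Without scaling 63.9% of all genes had a higher mean, with a median of 0.05, and with spike-in centring 59.2%. The deviations of same-numbered arrays of the 2 groups had correlations of -0.146, -0.100 and 0.229, and those of other pairs ran from -0.329 to 0.369. This check cannot settle, with 3 arrays a group, whether the numbers pair the arrays. With the replicate number as a block the medians stayed at 0.10 and -0.12, 0 genes were called and 850 had an unadjusted p under 0.05. A slide block could not be fitted, since each slide held a single group. With 3 arrays a group the 95% confidence intervals of 24 of the 26 genes included 0.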
